A study of Mus musculus with 20 samples.

Results

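The genes described here are 10 markers of endothelial cells, the cells that line blood vessels. They are Pecam1, Cdh5, Kdr, Flt1, Tek, Tie1, Vwf, Emcn, Eng and Plvap, taken by symbol from 51826 mouse genes counted in cultured renal myofibroblasts, the contractile, matrix-producing fibroblasts of the scarred kidney. The list rests on what the genes mark, with no count in its rule, and was drawn up with earlier results of these data known. All 10 passed the filter of at least 5 counts in at least 5 libraries, as did 20407 genes in all. The study compared cells that lack WWP2, a HECT-type E3 ubiquitin ligase, with wild-type (WT) cells. Primary renal myofibroblasts of the C57BL/6J strain, grown out of minced kidney pieces, were WT or WWP2-/- (labelled KO), and each genotype was either untreated or treated with TGFβ1, with 5 libraries in each of the 4 groups. The mice were littermates bred from heterozygous parents, so all cell types of a WWP2-/- kidney carry the deletion. No label says whether a library came from 1 animal or a pool, and P values therefore measure the spread between these libraries only.

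Endothelial cells hold together through adhesion proteins at their junctions and read blood vessel growth factors through tyrosine kinase receptors. VEGF ligands act through FLT1 and KDR, angiopoietins act through TEK with TIE1 beside it, and endoglin serves receptors of the TGFβ family. Most of these proteins are hardly made by fibroblasts, whereas endoglin, FLT1 and, in some stromal cells, TEK are also found outside the endothelium. A culture grown from kidney pieces can carry endothelial cells along. In RNA from a whole culture, fewer cells of a type and less RNA per cell cannot be told apart.

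TEK and TIE1 are sister receptors whose RNA levels had a moderate negative correlation over these libraries (Pearson's r = -0.523), as had endomucin and endoglin (r = -0.402). The 250 bases upstream of the RefSeq start of these 4 genes are therefore shown, 5′ to 3′ on the strand of the gene (build GRCm38.p6). The capitals mark AGGAAG or its reverse complement CTTCCT, a sequence around the GGAA core that ETS factors, such as the endothelial regulators ERG and FLI1, bind.
Tie1, chr4:118489850-118490099, minus strand: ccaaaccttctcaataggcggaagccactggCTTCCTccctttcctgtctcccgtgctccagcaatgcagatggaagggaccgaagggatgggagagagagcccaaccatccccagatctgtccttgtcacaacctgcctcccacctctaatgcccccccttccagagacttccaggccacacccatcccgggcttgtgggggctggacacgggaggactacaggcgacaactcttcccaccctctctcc
Emcn, chr3:137340828-137341077, plus strand: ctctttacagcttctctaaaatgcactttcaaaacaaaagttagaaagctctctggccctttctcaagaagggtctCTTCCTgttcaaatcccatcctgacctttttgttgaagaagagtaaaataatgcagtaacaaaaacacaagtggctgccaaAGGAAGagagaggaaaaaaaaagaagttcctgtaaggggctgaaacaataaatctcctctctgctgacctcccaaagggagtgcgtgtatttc
Tek, chr4:94739039-94739288, plus strand: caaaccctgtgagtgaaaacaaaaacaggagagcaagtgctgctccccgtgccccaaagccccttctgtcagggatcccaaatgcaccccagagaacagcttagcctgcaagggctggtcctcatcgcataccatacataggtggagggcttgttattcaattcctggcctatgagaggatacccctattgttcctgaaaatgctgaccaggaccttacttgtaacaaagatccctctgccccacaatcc
Eng, chr2:32646345-32646594, plus strand: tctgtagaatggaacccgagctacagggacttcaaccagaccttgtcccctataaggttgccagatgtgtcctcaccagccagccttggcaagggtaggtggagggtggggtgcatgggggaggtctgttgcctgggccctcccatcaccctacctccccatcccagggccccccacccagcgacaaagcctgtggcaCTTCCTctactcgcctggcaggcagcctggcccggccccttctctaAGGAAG

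Of the 10 genes, 6 were matched to a RefSeq promoter, and Pecam1, Cdh5, Vwf and Plvap are named only. AGGAAG was found on either strand once upstream of Tie1, 2 times upstream of Emcn, Eng and Flt1, and not upstream of Tek and Kdr, and 29.5% of 32851 promoters of the same length held it. The bare core GGAA was in all 6 windows and in 93.4% of all promoters, and AGATAA, a site of GATA factors, was in none of the 6 and in 9.99% of all. These matches are descriptions of letters. Those of AGGAAG did not follow the negatively correlated groups of genes described below, since Tie1, Emcn and Eng all held the motif.

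Libraries held between 47520759 and 73063697 counts. Scaled to the total of its library (CPM), Wwp2 was 21.5 ± 1.99 CPM in WWP2-/- and 53.2 ± 3.43 in WT libraries (mean ± SD, n = 5), and with TGFβ1 it was 19.5 ± 2.47 and 50.2 ± 6.37, with no overlap in either case. Cultures differed in 2 other ways that the labels do not give. Xist, the RNA that silences an X chromosome in female cells, was found at 120 to 297 CPM without Y-linked transcripts in 6 libraries, and the Y-linked genes Ddx3y, Uty, Kdm5d and Eif2s3y summed to 219 to 300 CPM without Xist in 9. In the other 5, WT replicates 1, 2 and 5, WT TGFβ1 replicate 1 and WWP2-/- replicate 1, both were above 1 CPM. The 3 classes were unevenly spread, since 7 of the 10 WWP2-/- libraries had Y-linked transcripts only, against 2 of the 10 WT libraries. Acta2, the smooth muscle actin of myofibroblasts, was 39.7 CPM in WWP2-/- replicate 3 and 49.0 CPM in WWP2-/- TGFβ1 replicate 1 against 945 to 3340 CPM in the other 18, so the myofibroblast label was not borne out by this marker in these 2 cultures. The summed level of 10 fibroblast genes was 6930 to 56700 CPM.

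Endothelial marker RNA was scarce. The 10 genes together took 0.00662% to 0.0282% of a library's counts. Their summed level was 130 to 153 CPM in WT, 119 to 282 CPM in WT TGFβ1, 66.6 to 240 CPM in WWP2-/- and 66.2 to 237 CPM in WWP2-/- TGFβ1 libraries. The WT libraries were close to each other in the sum although, as described below, its parts were not, and the 4 groups overlapped. Per length of exon, the median over the 20 libraries was highest for Eng, at 10.1 FPKM, which is the CPM divided by the kilobases of exon. Emcn (2.6), Flt1 (2.58) and Cdh5 (1.29) came next on the same FPKM scale. The remaining medians were 0.568 for Pecam1, 0.42 for Plvap, 0.415 for Tie1, 0.346 for Tek, 0.312 for Kdr and 0.203 FPKM for Vwf. Each pair of neighbours in this order had overlapping ranges over libraries, Eng at 3.55 to 20.1 FPKM and Emcn at 0.137 to 12.8 FPKM included, so no place in the order is clear of the next.

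The markers fell into groups that rose and fell together across libraries (a grouping made after the values were seen). Between any 2 of Pecam1, Cdh5, Tie1, Vwf, Emcn and Plvap, Pearson's r of log2(CPM + 0.5) over the 20 libraries lay between 0.732 and 0.994. Among Kdr, Tek and Eng it lay between 0.716 and 0.877. Between a gene of the former group and one of the latter it was negative in all 18 pairs, from -0.685 to -0.07. Flt1 belonged to neither, with r between -0.101 and 0.469. These 20 points share genotype, treatment and the mixture of cells in each culture, and the coefficients are given without a test.

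**Figure D1:**
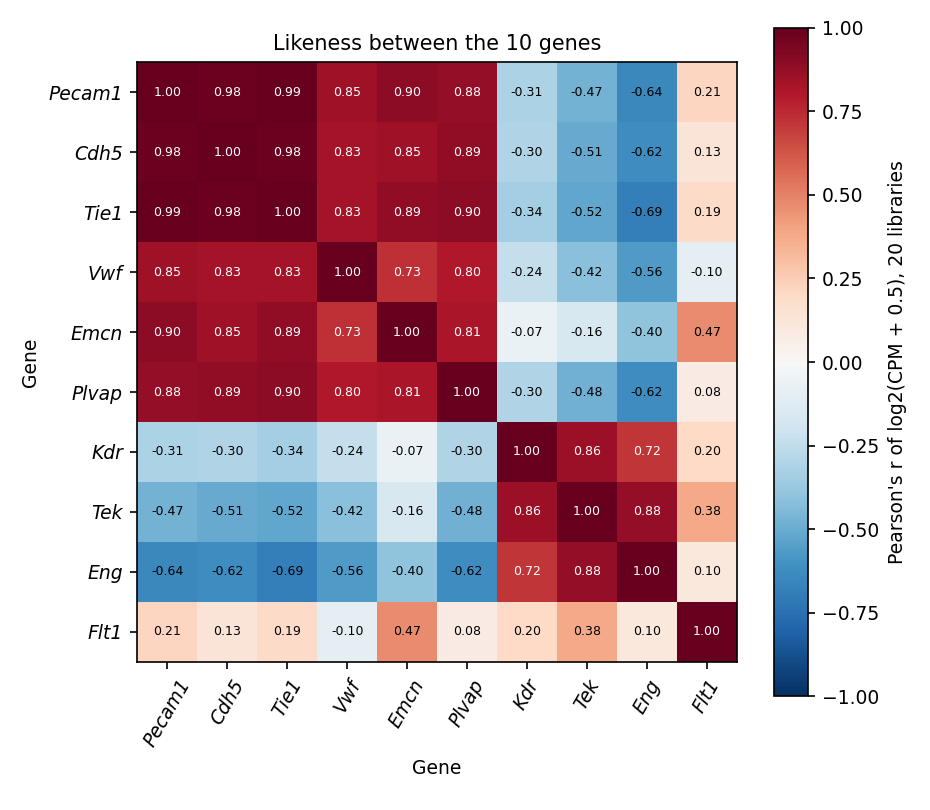
Pearson's r of log2(CPM + 0.5) over 20 libraries between each pair of the 10 genes, on a color scale from -1 to 1. The 6 genes at the top left form a block with r of 0.732 or more, Kdr, Tek and Eng form a smaller block with r of 0.716 or more, all 18 coefficients between the blocks are negative, and Flt1 stands apart.

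Pecam1 (CD31) and Cdh5 (VE-cadherin), the adhesion proteins of the endothelial junction, differed more between libraries of 1 group than between groups. Pecam1 was 3.53, 3.54, 0.266, 11.5 and 1.69 CPM in WT replicates 1 to 5 and 8.8, 0.144, 31.2, 0.342 and 0.0541 CPM in WT TGFβ1 replicates 1 to 5. It was 6.99, 29.1, 0.103, 3.71 and 3.42 CPM in WWP2-/- and 0.0491, 13.6, 1.89, 28.3 and 27.5 CPM in WWP2-/- TGFβ1 libraries. Each group thus had a library below 0.3 CPM and a library above 11 CPM, and the lowest values, 0.0541 and 0.0491 CPM, stand for 3 counts each. Cdh5 followed the same libraries, at 5.45, 5.6, 1.01, 20.9 and 3.74 CPM in WT and 16.9, 1.06, 61.3, 1.23 and 0.487 CPM in WT TGFβ1. In WWP2-/- it was 14.5, 51.8, 1.29, 4.8 and 5.43 CPM, and with TGFβ1 2.03, 30.2, 2.84, 49.5 and 49.3 CPM. The highest Cdh5 library was 126 times the lowest, and all groups overlapped. Cdh5 lies 3.29 Mb from Wwp2 on chromosome 8, and Plvap 35.9 Mb, so both lie on the chromosome that carries the deletion.

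Tie1, the receptor that partners TEK, ran with Pecam1 (r = 0.994) and reached 6.41 CPM in WT, 13.5 CPM in WT TGFβ1 and 13.7 CPM in both WWP2-/- groups. No count of Tie1 was found in 3 libraries, WT TGFβ1 replicate 5, WWP2-/- replicate 3 and WWP2-/- TGFβ1 replicate 1, which allows up to 0.0541, 0.0617 and 0.0491 CPM at 3 counts. Emcn, the capillary and venous sialomucin endomucin, was between 0.74 CPM in WWP2-/- replicate 3 and 69 CPM in WWP2-/- TGFβ1 replicate 4. Plvap, which builds the diaphragms of fenestrae and caveolae, was between 0.164 CPM in WWP2-/- TGFβ1 replicate 1 and 5.91 CPM in WWP2-/- TGFβ1 replicate 5. For each of the 6 genes the highest library was replicate 4 in WT, replicate 3 in WT TGFβ1, replicate 2 in WWP2-/- and replicate 4 or 5 in WWP2-/- TGFβ1.

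**Figure D2:**
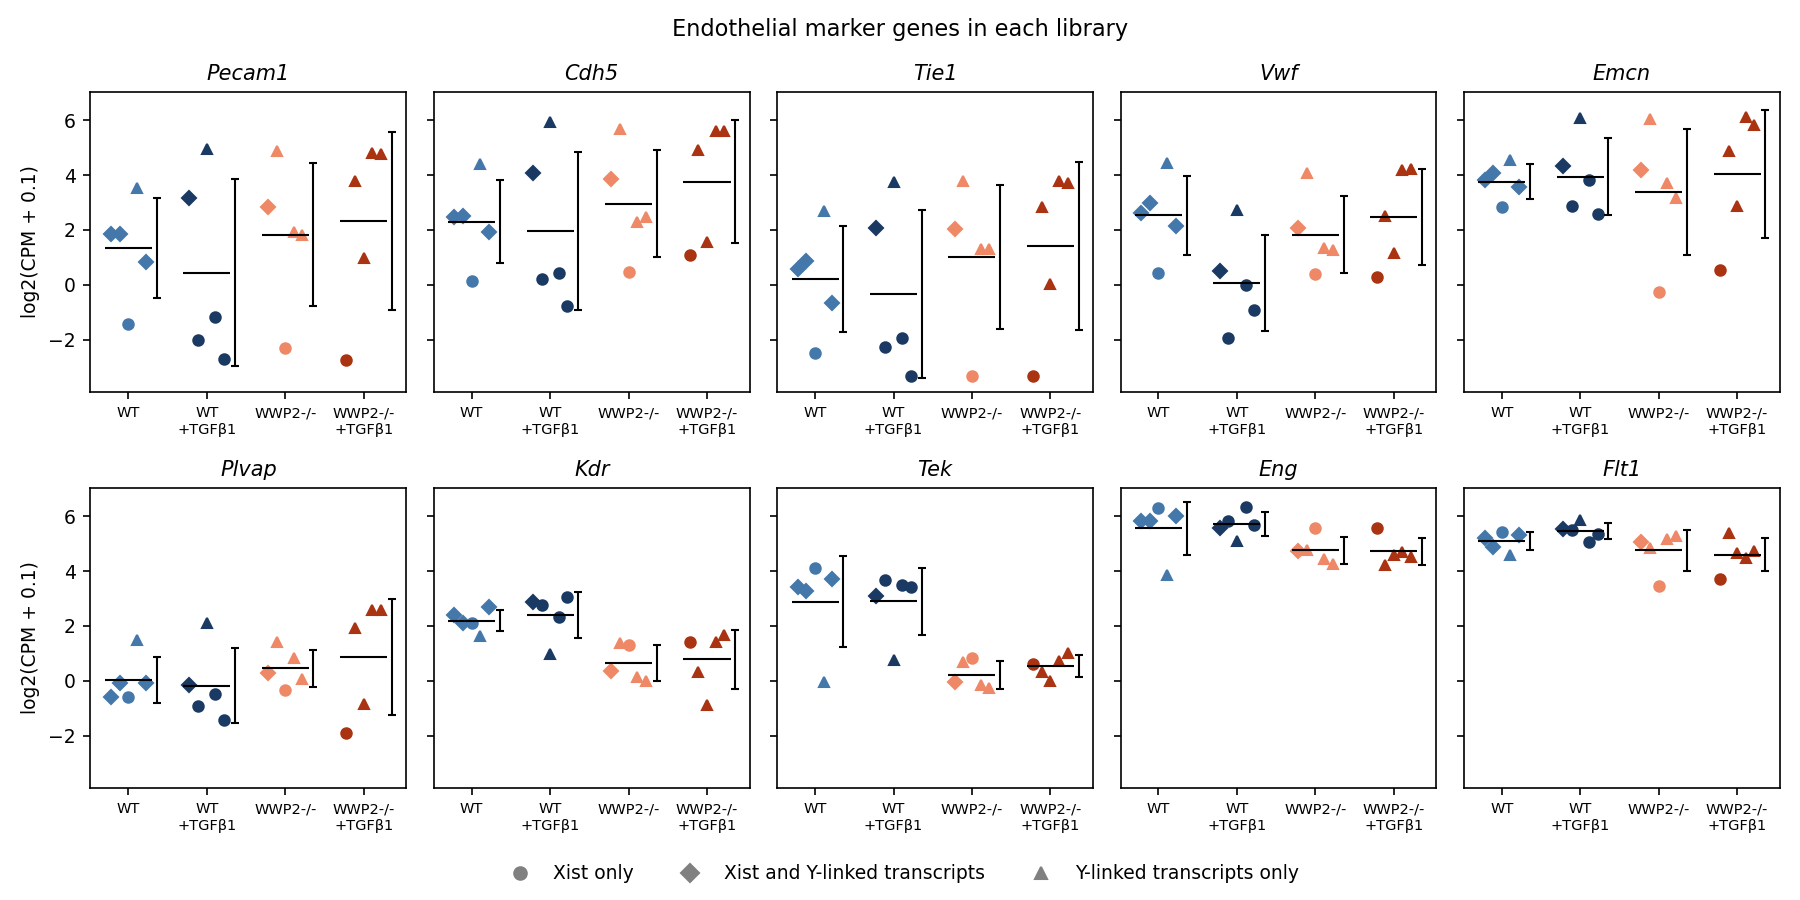
Level of the 10 genes as log2(CPM + 0.1) in each of the 20 libraries, by group, with the mean as a line and the SD as a bar (n = 5). Point shapes give the sex-linked transcripts found, and a reader should see circles (Xist only) at the bottom for Pecam1, Cdh5 and Tie1 in each group, and the WT libraries lying mostly above the WWP2-/- libraries for Kdr, Tek and Eng.

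The sex-linked class of a library moved with the Pecam1 group. Pecam1 was 0.0491 to 0.342 CPM in the 6 libraries with Xist only, 1.69 to 8.8 CPM in the 5 with both and 1.89 to 31.2 CPM in the 9 with Y-linked transcripts only. Cdh5 was 0.487 to 2.03, 3.74 to 16.9 and 2.84 to 61.3 CPM in the same order. Emcn was 0.74 to 14.1, 11.7 to 20.3 and 7.32 to 69 CPM in that order. Plvap was 0.164 to 0.699, 0.56 to 1.11 and 0.458 to 5.91 CPM. The libraries with Xist only thus overlapped with the rest for Emcn and Plvap, and not for Pecam1, Cdh5, Tie1 and Vwf. The share of all genes without overlap in this split was not computed, so the separation cannot be called particular to these genes. Markers of other cells moved with them as well. The summed level of 10 macrophage and blood genes was 55.1 to 264 CPM with Xist only, 120 to 1070 CPM with both and 255 to 4040 CPM with Y-linked transcripts only, and that of 12 tubular genes was 14.5 to 60.4, 120 to 388 and 86.4 to 850 CPM. Of the macrophage list 8 of 10 genes, and of the tubular list 6 of the 9 tested, had r above 0.7 with Pecam1. Over all genes tested, 2986 had r above 0.7 with Pecam1. Of the 12 tubular genes 9 passed the filter. The proximal tubule transporter Slc34a1 and the thick limb protein Umod were among the 3 that did not pass. In untreated cultures, WWP2-/- against WT, the cadherin Cdh16 averaged 140 ± 158 against 110 ± 65.9 CPM (n = 5). In the same order, the kidney transcription factor Pax8 averaged 118 ± 74.9 against 73.2 ± 53.7 CPM. The proximal endocytic receptor Lrp2 averaged 35.2 ± 18.8 against 24.1 ± 14.2 CPM. Of the 9 tubular genes, 4 had a positive and 5 a negative log2 fold change between untreated genotypes, and none was called. The part that other cells had in the levels of the Pecam1 group was not tested.

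The genes most like Pecam1, Cdh5 and Tie1 were known endothelial genes, while those most like Emcn, Plvap and Vwf were mostly not. The 3 genes nearest to Pecam1 of those tested were Mmrn2, an endothelial matrix protein (r = 0.995), Tie1, and the adhesion molecule Esam (r = 0.987). Nearest to Cdh5 was Myct1 (r = 0.983), ahead of Pecam1 and Tie1. Plvap had among its nearest 3 the arterial transcription factor Sox17 (r = 0.925), with Gm29337 and Smpd1, and Emcn had 4930466K18Rik (r = 0.94), Ccdc73 and Rgs6. Of 14 other endothelial surface and junction genes tested, 7 had r above 0.9 with Pecam1, as had 4 of 12 endothelial transcription factors, while 178 of all genes tested did. Those 11 were Esam, Icam2, Robo4, Mmrn2, Cd34, Adgrl4, Cd93, Erg, Sox7, Sox17 and Tal1. Erg, the ETS factor of endothelial identity, was between 0 and 9.01 CPM.

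Kdr, Tek and Eng had other neighbours. Tek was most like A730020M07Rik (r = 0.98), the homeobox gene Lhx8 (r = 0.978) and Clec11a, a growth factor of stromal cells (r = 0.975). Kdr was most like Mpp1 (r = 0.957), Nek6 and Fmo1, and Eng was most like Rnase4 (r = 0.96), Serpinf1, which encodes a secreted antiangiogenic serpin, and Plpp1. None of these is in the endothelial lists. Of the 10 fibroblast genes, 7 had r above 0.7 with Tek and 6 with Eng, and none with Pecam1, where 1115 of all genes tested did with Tek and 1133 with Eng. The collagen fibril proteoglycan Lum, chosen after its values were seen, had r of 0.924 with Tek and -0.716 with Pecam1. The fibronectin gene Fn1 and Acta2 of the same list went the other way, with r of -0.518 and -0.042 with Tek and 0.549 and 0.511 with Pecam1.

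Between genotypes, 2 of the 10 markers passed the test. With TGFβ1, Kdr and Tek were lower in WWP2-/- than in WT libraries by edgeR's quasi-likelihood test with Benjamini-Hochberg adjustment over the 20407 genes, so 2 of 10 markers were called against 6.07% of all genes. In WWP2-/- 3.96% of all genes were called lower and 2.1% higher, and none of the 10 markers was among the latter. Untreated, 1 of 10, Tek, was called against 0.725% of all genes, where 0.622% of all genes were called lower and 0.103% higher. Both calls of Tek and that of Kdr were on the side where most calls fell, as 809 of 1238 genes called with TGFβ1 and 127 of 148 untreated were lower in WWP2-/-.

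Tek, which encodes the angiopoietin receptor TIE2, was 10.5, 9.63, 17.2, 0.865 and 12.9 CPM in WT and 8.53, 12.7, 1.6, 11.1 and 10.7 CPM in WT TGFβ1 replicates 1 to 5. It was 0.862, 1.49, 1.66, 0.793 and 0.727 CPM in WWP2-/- and 1.41, 1.16, 0.897, 1.56 and 1.92 CPM in WWP2-/- TGFβ1 libraries. All WWP2-/- libraries were below 2 CPM, and so were WT replicate 4 and WT TGFβ1 replicate 3, while the other 8 WT libraries were above 8 CPM. The means were 1.39 ± 0.389 against 8.94 ± 4.37 CPM with TGFβ1 (n = 5; log2 fold change -2.87, SE 0.605, edgeR adjusted P = 0.0135; exact permutation P = 0.0159, unadjusted). Untreated they were 1.11 ± 0.436 against 10.2 ± 5.99 CPM (log2 fold change -3.32, SE 0.617, edgeR adjusted P = 0.023; exact permutation P = 0.0238). The 2 WT libraries with low Tek are those with Y-linked transcripts only, and within that class Tek was 0.865 and 1.6 CPM in WT and 0.727 to 1.92 CPM in the 7 WWP2-/- libraries. In the class with Xist only it was 10.7 to 17.2 CPM in 4 WT and 1.41 and 1.66 CPM in 2 WWP2-/- libraries, and with both it was 8.53 to 12.9 CPM in 4 WT and 0.862 CPM in 1 WWP2-/- library. The genotypes thus overlapped with Y-linked transcripts only and were apart in the other classes. The 2 WWP2-/- libraries with Xist only are those with low Acta2, and the class with both holds 1 WWP2-/- library. The separation within these classes therefore rests on few WWP2-/- libraries. With Xist as a covariate the edgeR adjusted P rose to 0.154 with TGFβ1 and 0.0955 untreated, at log2 fold changes of -1.58 and -2.29. The call with TGFβ1 held in each of the 20 fits that left out 1 library. The untreated call was lost without WWP2-/- replicate 1, 3, 4 or 5 or WT replicate 1, 3 or 5, at edgeR adjusted P values from 0.0508 to 0.0912 and log2 fold changes from -3.56 to -3.06.

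Kdr, which encodes VEGFR2, the main signaling receptor for VEGF-A, was 5.23, 4.21, 4.22, 3.04 and 6.3 CPM in WT and 7.24, 6.78, 1.87, 4.96 and 8.33 CPM in WT TGFβ1 libraries. In WWP2-/- it was 1.19, 2.49, 2.4, 0.998 and 0.893 CPM and with TGFβ1 2.57, 1.15, 0.439, 2.6 and 3.08 CPM. Untreated, every WT library was above every WWP2-/- library, and with TGFβ1 only WT TGFβ1 replicate 3 fell among the WWP2-/- values. With TGFβ1 the means were 1.97 ± 1.12 and 5.84 ± 2.53 CPM (log2 fold change -1.76, SE 0.473, edgeR adjusted P = 0.0351; exact permutation P = 0.0317). Untreated they were 1.6 ± 0.786 and 4.6 ± 1.23 CPM (log2 fold change -1.62, SE 0.472), which did not pass in edgeR (adjusted P = 0.122) and passed in DESeq2 (adjusted P = 0.0144), with an exact permutation P of 0.00794, the smallest that 5 against 5 libraries allow. Kdr was the only marker whose untreated groups did not overlap, as was so for 2.82% of all genes, and with TGFβ1 none was without overlap against 5.53% of all genes. Within the libraries with Y-linked transcripts only, Kdr was 1.87 and 3.04 CPM in WT and 0.439 to 3.08 CPM in WWP2-/-. With Xist only it was 4.22 to 8.33 and 2.4 to 2.57 CPM, where the WWP2-/- libraries are those with low Acta2. With Xist as a covariate the edgeR adjusted P with TGFβ1 was 0.181, and with Cdh5 as a covariate, added after seeing the data, it was 0.0764. The call with TGFβ1 was lost without any of WT TGFβ1 replicates 1, 2, 4 and 5 or WWP2-/- TGFβ1 replicates 2 and 4 (edgeR adjusted P from 0.0594 to 0.09), and Kdr passed untreated without WT replicate 4 (edgeR adjusted P = 0.0492).

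Eng, the coreceptor endoglin, was 56.8, 57, 78.5, 14.4 and 64.6 CPM in WT and 48.1, 56.7, 34.6, 81.2 and 51.8 CPM in WT TGFβ1 libraries. It was 26.3, 27.2, 47.7, 21.9 and 19 CPM in WWP2-/- and 47.5, 18.8, 23.9, 26 and 23 CPM in WWP2-/- TGFβ1 libraries. The high WWP2-/- libraries, replicate 3 untreated and replicate 1 with TGFβ1, are the 2 with low Acta2, and the low WT library is again replicate 4. With TGFβ1 the means were 27.8 ± 11.3 and 54.5 ± 17 CPM (log2 fold change -1.10, SE 0.396, edgeR adjusted P = 0.0979; exact permutation P = 0.0159). Untreated they were 28.4 ± 11.3 and 54.3 ± 24 CPM (log2 fold change -1.03, edgeR adjusted P = 0.247; exact permutation P = 0.0794). Neither passed the edgeR test. By class, Eng was 14.4 and 34.6 CPM in WT and 18.8 to 27.2 CPM in WWP2-/- libraries with Y-linked transcripts only, and 51.8 to 81.2 and 47.5 to 47.7 CPM with Xist only. Without WT TGFβ1 replicate 3, WWP2-/- TGFβ1 replicate 1 or WT replicate 4, Eng passed with TGFβ1 (edgeR adjusted P of 0.0482, 0.0369 and 0.0308), and without WT replicate 4 also untreated (edgeR adjusted P = 0.0278). An exon of Fpgs on the opposite strand shares 61 bases with Eng, and no strand setting for the counting is given in the sources used here, so reads there could belong to either gene.

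**Figure D3:**
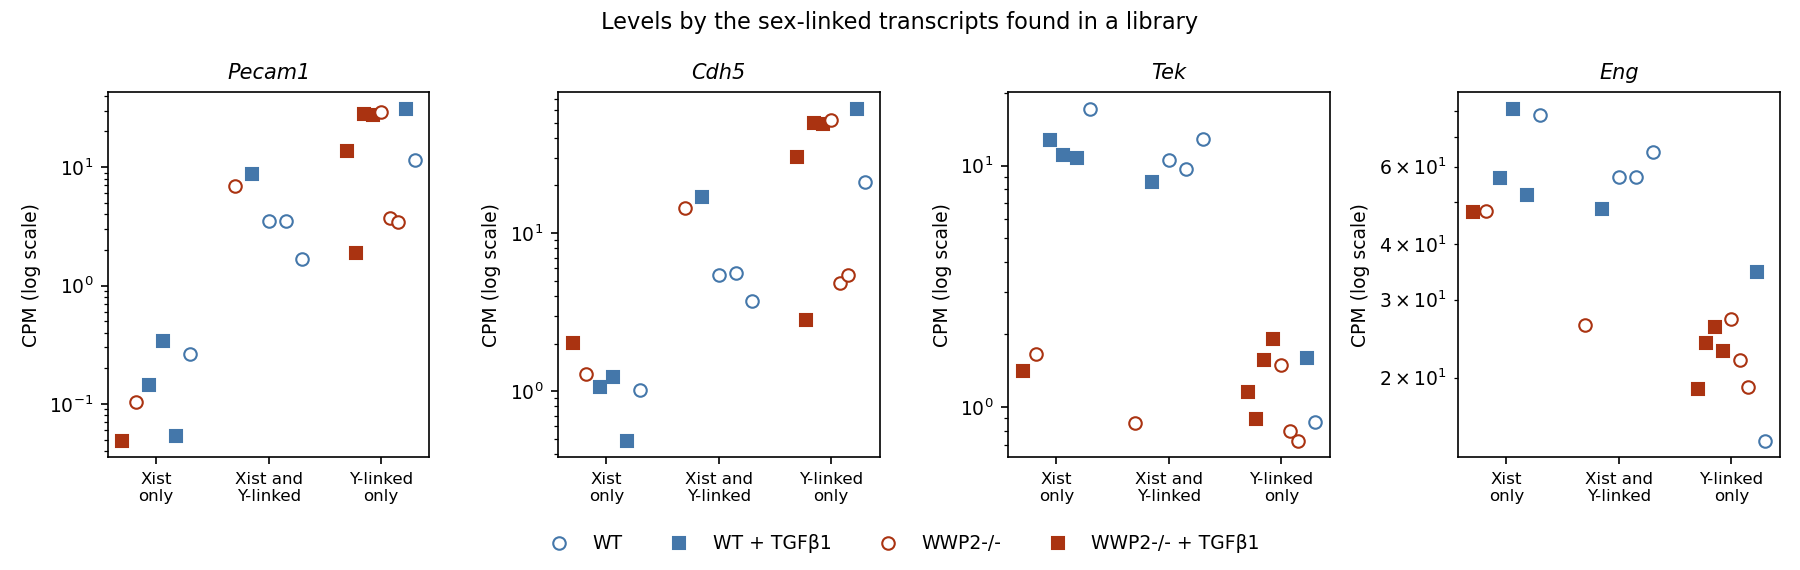
CPM on a log scale of Pecam1, Cdh5, Tek and Eng in 20 libraries, sorted by whether Xist, Y-linked transcripts or both were found, with WT in blue, WWP2-/- in red, open circles for untreated and filled squares for TGFβ1. Tek of WT libraries lies above 8 CPM with Xist only or both and falls to 0.865 and 1.6 CPM, among the WWP2-/- values, with Y-linked transcripts only, whereas Pecam1 is lowest with Xist only.

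Flt1 encodes VEGFR1, which binds VEGF-A and is also secreted as a soluble decoy. Its levels were 37.1, 29.7, 43.1, 24.3 and 40.1 CPM in WT and 46.8, 45, 59, 33.1 and 41.4 CPM in WT TGFβ1. They were 33.7, 28.9, 10.8, 36 and 38.8 CPM in WWP2-/- and 13.1, 42.1, 25.4, 22 and 26.4 CPM in WWP2-/- TGFβ1. The lowest library of each WWP2-/- group was the one with low Acta2. With TGFβ1 the means were 25.8 ± 10.5 and 45.1 ± 9.41 CPM (log2 fold change -0.93, SE 0.302, edgeR adjusted P = 0.0711; exact permutation P = 0.0238), and untreated they were 29.6 ± 11.1 and 34.8 ± 7.72 CPM (log2 fold change -0.31, edgeR adjusted P = 0.647; exact permutation P = 0.46). The difference with TGFβ1 passed in DESeq2 (adjusted P = 0.0347) and, in edgeR, without WWP2-/- replicate 3 (adjusted P = 0.0257) or WWP2-/- TGFβ1 replicate 2 (adjusted P = 0.0471). Flt1 was most like Fnbp1 (r = 0.949), Msrb3 and C1qtnf1, and its r with the summed fibroblast genes was 0.774, against -0.27 to 0.305 for the other 9 markers.

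Without the 2 libraries with low Acta2, a choice made after seeing the data, 4 markers were called lower in WWP2-/- with TGFβ1, as Eng (log2 fold change -1.41, edgeR adjusted P = 0.0215) and Flt1 (-0.77, edgeR adjusted P = 0.0274) joined Kdr and Tek. In that fit 17.2% of all genes were called, against 6.07% with all libraries. Without the 5 libraries that held both Xist and Y-linked transcripts, also chosen after seeing the data, none was called, nor were more than 2 of all 19793 genes tested, and Tek kept a log2 fold change of -2.90 with TGFβ1 (edgeR adjusted P = 0.106).

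Of the Pecam1 group no gene was called between genotypes. With TGFβ1 the log2 fold change of WWP2-/- against WT was 0.75 for Pecam1, 0.66 for Cdh5, 0.90 for Tie1, 0.40 for Emcn, 1.25 for Plvap and 2.21 for Vwf, with standard errors from 0.801 for Plvap to 1.51 for Tie1. The smallest edgeR adjusted P of these 6 was 0.165, for Vwf. Untreated, the fold changes were 1.01, 1.02, 1.09, 0.46 and 0.31 in the same order of the former 5 and -0.67 for Vwf. The standard errors of Pecam1, Cdh5, Tie1 and Emcn exceeded their fold changes, so differences of these sizes were not detectable at this spread. With Xist as a covariate the sign turned for Pecam1, Cdh5, Tie1 and Emcn with TGFβ1, to values from -1.27 for Emcn to -0.68 for Cdh5, so no direction is given for these genes. Vwf with TGFβ1 was 3.45 on the log2 scale (edgeR adjusted P = 0.0321) without WT TGFβ1 replicate 3.

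**Figure D4:**
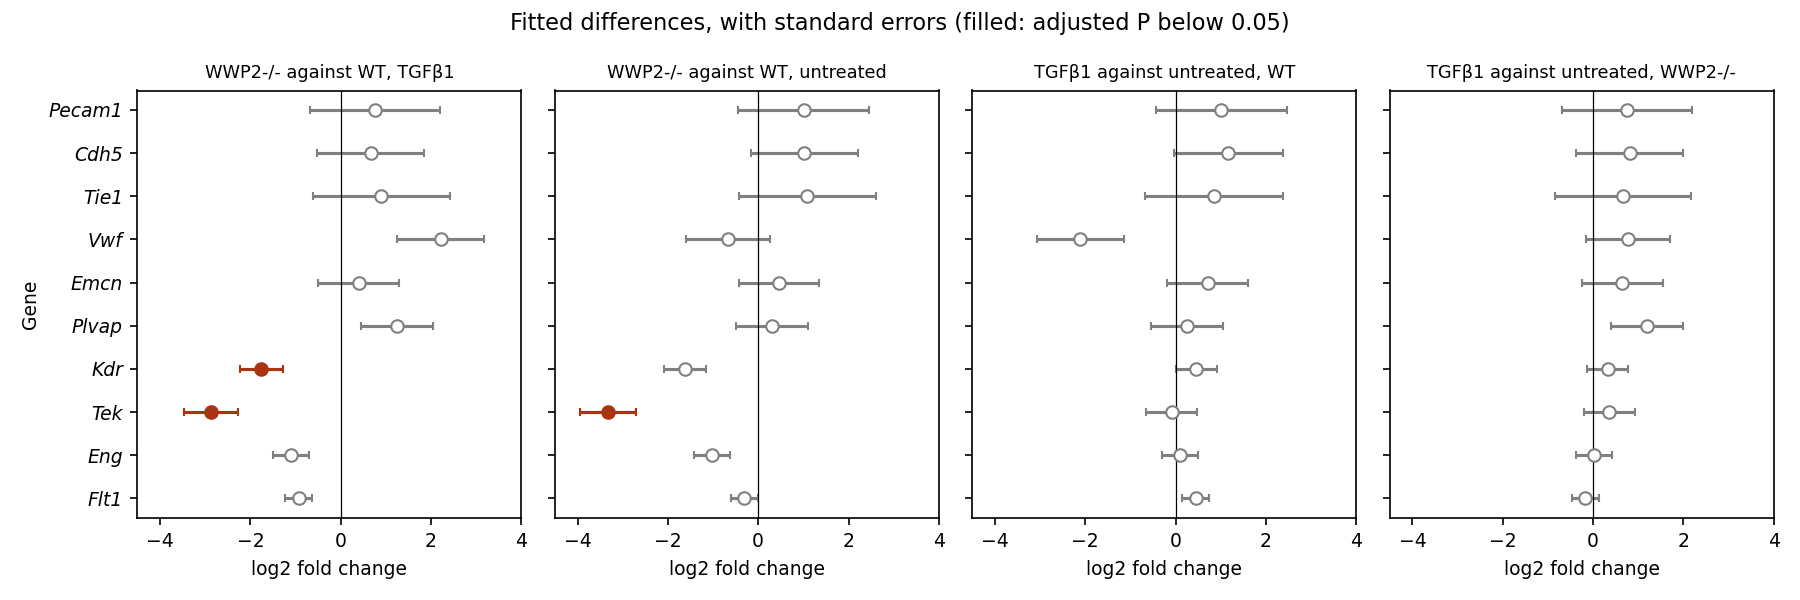
Log2 fold changes of the 10 genes from the fit over 20 libraries in 4 comparisons, with standard errors as bars and filled points for an adjusted P below 0.05. Tek at -2.87 and -3.32 and Kdr at -1.76 are the filled points, all in the comparisons of genotypes, and the bars of Pecam1, Cdh5 and Tie1 span 1 to 1.5 log2 units to each side.

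No marker was called for TGFβ1 in either genotype without a covariate, and with Cdh5 as a covariate Vwf was called in WT, as given below. In WT and in WWP2-/- libraries 0 of 10 were called by edgeR and by DESeq2, against 0% of all genes in edgeR, where 1397 and 713 of the genes had an unadjusted P below 0.05, and 27 and 44 genes in DESeq2. The interaction of genotype and treatment likewise gave 0 markers by both tools and 0% of all genes in edgeR (1424 at an unadjusted P below 0.05) and 10 genes in DESeq2. At an unadjusted P below 0.05 in edgeR stood 1 marker, Vwf, in WT and in the interaction, and none in WWP2-/-. No marker had groups without overlap, as was so for 1.19% of all genes in WT and 0.421% in WWP2-/-. For Tek the log2 fold change with TGFβ1 was -0.09 in WT (SE 0.561) and 0.36 in WWP2-/- (SE 0.572), and for Eng it was 0.10 (SE 0.392) and 0.02 (SE 0.392). Kdr was 0.46 and 0.32, with standard errors of 0.459 and 0.463.

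Vwf, the clotting glycoprotein that endothelial cells store in Weibel-Palade bodies, stood out from its group in the response to TGFβ1. It was 6.07, 7.85, 1.24, 21.8 and 4.38 CPM in WT and 1.31, 0.162, 6.46, 0.883 and 0.433 CPM in WT TGFβ1 libraries. In WWP2-/- it was 4.06, 17, 1.21, 2.45 and 2.33 CPM, and with TGFβ1 1.13, 5.65, 2.11, 18 and 18.6 CPM. Most WT TGFβ1 libraries were low, and the groups overlapped. The log2 fold change in WT was -2.11 (SE 0.963, unadjusted P = 0.0415 and adjusted P = 0.712 in edgeR; exact permutation P = 0.0873), in WWP2-/- it was 0.78 (SE 0.926), and the interaction was 2.89 (SE 1.33, unadjusted P = 0.0434 and adjusted P = 0.691 in edgeR).

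Vwf set beside Cdh5, a comparison chosen after the values were seen, separated the untreated WT libraries. With Cdh5 as a covariate, a fit also added after seeing the data, Vwf was lower with TGFβ1 in WT (log2 fold change -2.30, edgeR adjusted P = 0.0061). That fit called 1.59% of all genes for TGFβ1 in WT. The ratios themselves are given without a test. The ratio of Vwf to Cdh5 counts was 1.11, 1.4, 1.23, 1.04 and 1.17 in WT, 0.0774 to 0.889 in WT TGFβ1, 0.281 to 0.937 in WWP2-/- and 0.187 to 0.742 in WWP2-/- TGFβ1 libraries. The 5 untreated WT libraries were above the other 15. Cd93, an endothelial and myeloid lectin, had its highest mean ratio to Cdh5 in WT, at 1.83 ± 0.199 (n = 5), against means of 0.743 to 1.08 in the other groups. Its libraries overlapped, with 1.71 in WT TGFβ1 replicate 4 and 1.63 in WT replicate 4. For other genes the highest mean ratio was not always in WT, as for Emcn in WT TGFβ1 (6.55 ± 5.32) and Esam in WWP2-/- (0.422 ± 0.124). Macrophage genes moved with Vwf, as its r with the summed macrophage and blood genes was 0.962, above its r with Cdh5 of 0.83. Tubular genes did so too, with r of 0.834 for their sum. By tubular gene it lay between 0.192 for Slc12a1 and 0.954 for Epcam, and their part in the Vwf values was not tested. The macrophage and blood sum was 137 to 4040 CPM in WT, 55.1 to 424 CPM in WT TGFβ1, 84.8 to 1830 CPM in WWP2-/- and 73.6 to 3490 CPM in WWP2-/- TGFβ1 libraries. All 10 genes of the list were detected, with Pf4, the platelet chemokine, at 0 in at least 1 library, and their part in the Vwf values was not tested. The genes nearest to Vwf were Otulinl, Entpd1, an ectonucleotidase of endothelium and leukocytes, and Tnfaip8l2, an immune regulator, with r of 0.982 to 0.983.

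**Figure D5:**
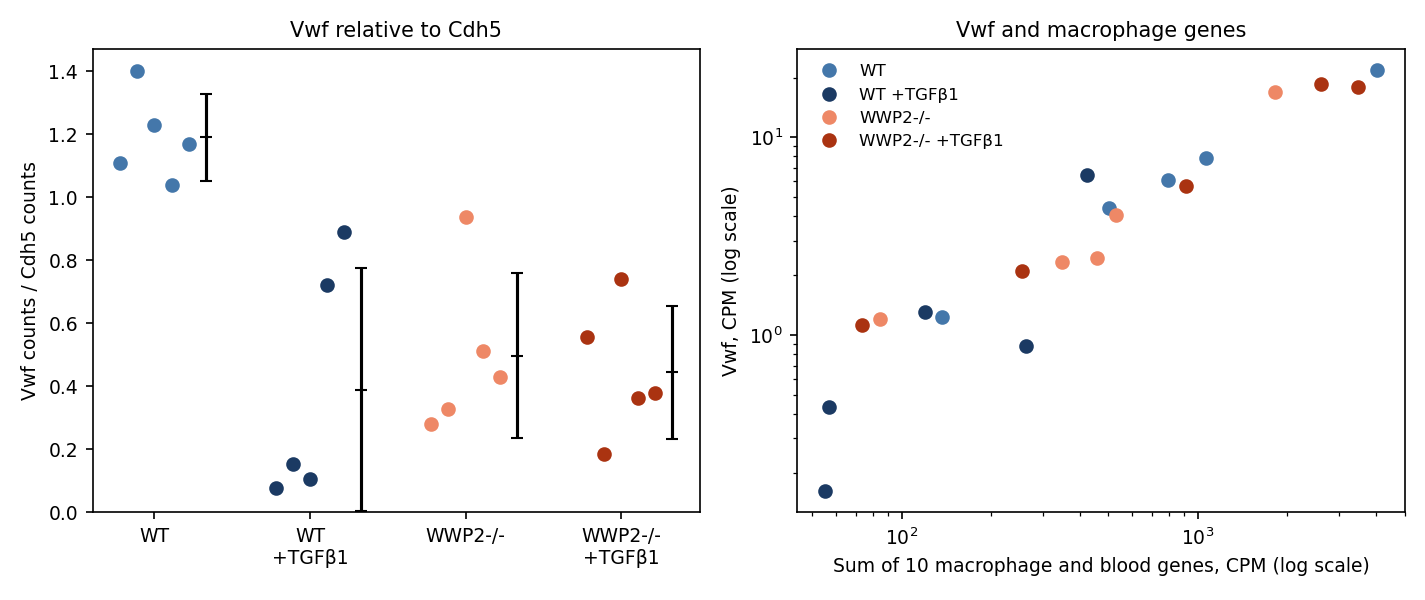
Left, the ratio of Vwf to Cdh5 counts in each library by group, with mean and SD (n = 5). The 5 untreated WT libraries lie between 1.04 and 1.4 and the other 15 below 1. Right, Vwf against the summed CPM of 10 macrophage and blood genes over 20 libraries, both on log scales, where the points rise together over the whole range.

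Around the markers, 57 further genes of endothelial cells and of their signals were listed, of which 52 were tested. With TGFβ1, 1 was called higher and 5 lower in WWP2-/-, beside 6.07% of all genes called, and the median log2 fold change of the 52 was -0.04, beside 0.05 for all genes. Untreated, 0 were called higher and 3 lower, beside 0.725% of all genes, with a median of 0.10 beside 0.08. No gene of these lists was called by edgeR or DESeq2 for TGFβ1 in either genotype or for the interaction. Of the 52, 4 in WT, 5 in WWP2-/- and 4 in the interaction had an unadjusted P below 0.05 in edgeR. Of all genes 6.85%, 3.49% and 6.98% did so, in the same order. The count between genotypes with TGFβ1 rose to 10 without WWP2-/- replicate 3 and to 14 without WT TGFβ1 replicate 3. The share of all genes called was not computed for those fits. Without both libraries with low Acta2 the count was 13, where 17.2% of all genes were called. Without the 5 libraries with Xist and Y-linked transcripts it was 0, where 0.0101% were called. In DESeq2 it was 13, where 13.1% of all genes were called.

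Among ligands, Vegfd, which acts on the VEGF receptors of lymphatic vessels, showed the largest change of these lists, at 7.57 ± 7.4 CPM in WWP2-/- TGFβ1 against 226 ± 141 CPM in WT TGFβ1 (log2 fold change -5.06, SE 1.02, edgeR adjusted P = 0.0121). Untreated it was 11.7 ± 5.55 against 232 ± 136 CPM (log2 fold change -4.40, edgeR adjusted P = 0.0467). Over the 20 libraries Vegfd had r of 0.949 with Tek. Vegfa, the main VEGF ligand, was 191 ± 142 and 192 ± 24.9 CPM with TGFβ1 and was not called, and neither were the angiopoietins Angpt1 and Angpt2. Angpt1 was 27.5 ± 24.2 CPM in WWP2-/- TGFβ1 and 28.1 ± 43.4 CPM in WT TGFβ1.

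Among the partners of endoglin, the inhibitory Smad6 and the BMP-responsive Smad9 were lower in WWP2-/- than in WT with TGFβ1. Smad9 was 2.45 ± 0.789 against 15.4 ± 8.18 CPM (log2 fold change -2.76, edgeR adjusted P = 0.00639), and Smad6 30.5 ± 10.2 against 68.8 ± 21 CPM (log2 fold change -1.29, edgeR adjusted P = 0.0473). Untreated, their log2 fold changes were -0.93 and -0.26, and neither was called (edgeR adjusted P values of 0.335 and 0.763). Acvrl1, the receptor that endoglin serves, was 19.1 ± 15 against 39.6 ± 16.2 CPM with TGFβ1, which did not pass in edgeR (adjusted P = 0.219), and had r of 0.919 with Eng. The ligands Gdf2 (BMP9) and Bmp10 were at a mean of 0.011 CPM or less in each group and were not tested.

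Of the transcription factors, the hematopoietic and endothelial factor Gata2 was lower with TGFβ1, at 24.6 ± 7.39 against 53.9 ± 29.4 CPM (log2 fold change -1.21, edgeR adjusted P = 0.0142). Untreated, Gata2 was 36.8 ± 6.94 against 31.7 ± 3.11 CPM (log2 fold change 0.15, edgeR adjusted P = 0.801). Fli1 and Mef2c were lower untreated, at 2.71 ± 1.02 against 6.42 ± 0.814 CPM and 1.43 ± 0.22 against 4.33 ± 1.45 CPM (log2 fold changes -1.33 and -1.68, edgeR adjusted P values of 0.0432 and 0.048). With TGFβ1, Fli1 and Mef2c were at -0.65 and -1 and were not called (edgeR adjusted P values of 0.173 and 0.111). Their r was 0.8 and 0.879 with Tek and -0.275 and -0.442 with Pecam1. None of these 52 genes was called untreated in 15 of the 20 fits that left out 1 library, those without any library of WWP2-/-, WT replicates 1, 2, 3 and 5, WT TGFβ1 replicates 1, 2 and 5 or WWP2-/- TGFβ1 replicates 2, 4 and 5. Among surface genes Ehd3, an endocytic protein of glomerular endothelium, was 15.6 ± 2.41 against 37.2 ± 20.9 CPM with TGFβ1 (log2 fold change -1.41, edgeR adjusted P = 0.0341), and its r with Tek was 0.848. Prox1, the master regulator of lymphatic identity, was the gene that was higher in WWP2-/- with TGFβ1, at 2.62 ± 0.45 against 0.885 ± 0.182 CPM with no overlap (log2 fold change 1.46, edgeR adjusted P = 0.00783). Untreated, its log2 fold change was 0.49 and it was not called (edgeR adjusted P = 0.375). Its r was -0.824 with Tek and 0.359 with Pecam1. The other 3 lymphatic genes tested were not called by edgeR and did not share a direction. The VEGF-C receptor Flt4 was 17.7 ± 14 against 4.12 ± 3.68 CPM with TGFβ1 (log2 fold change 2.05, edgeR adjusted P = 0.0694), and podoplanin, Pdpn, 634 ± 527 against 294 ± 41.1 CPM (log2 fold change 1, edgeR adjusted P = 0.185). The hyaluronan receptor Lyve1 was 0.131 ± 0.0257 against 0.363 ± 0.105 CPM without overlap (log2 fold change -1.60, edgeR adjusted P = 0.0611), and the chemokine Ccl21a had a mean of 0 CPM in each group.

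Other cells' lists were counted in the same way. With TGFβ1, Col1a1, Col1a2 and Postn of the 10 fibroblast genes were lower in WWP2-/-, with a median of -2.34 over the list, as were Itga8 of the pericyte and mesangial genes and Wt1 of the podocyte genes. Fn1 of the fibroblast list was positive (log2 fold change 1.05, edgeR adjusted P = 0.235), and Acta2 was at -0.05 (edgeR adjusted P = 0.979). None of the macrophage or tubular genes was called in any comparison by edgeR, although 9 of 10 macrophage genes had an unadjusted P below 0.05 between genotypes with TGFβ1, at a median log2 fold change of 2.52, as had 24.7% of all genes. For TGFβ1 in WT 9 of 10 did so at a median of -2.44, and in the interaction 9 of 10 at a median of 3.33, against 6.85% and 6.98% of all genes. These directions are those of Vwf. The tubular list shared them, at medians of 1.56 between genotypes with TGFβ1, -2.05 for TGFβ1 in WT and 1.62 in the interaction. Of its 9 genes tested, 1, 1 and 0 had an unadjusted P below 0.05 in edgeR, in the same order. Col1a2, for example, was 1270 ± 835 against 7340 ± 2260 CPM (log2 fold change -2.63, edgeR adjusted P = 0.0142), and its r with Tek was 0.806. The part of the fibroblast state of a culture in the Tek, Kdr and Eng values was not tested.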

How the data were processed

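Poly-A RNA of myofibroblast cultures, grouped by their titles, was sequenced from both fragment ends in 20 libraries. The authors aligned the reads with STAR to GRCm38 (mm10), counted them on exons with featureCounts, and deposited raw counts for 51826 genes without normalization. The versions of both tools and the strand setting are not given in the sources used here. GENCODE M21 names 51633 of the genes, and exon lengths for FPKM come from it. Promoters come from RefSeq (GRCm38.p6), of which the 250 bases before the start were used. All 20 columns were matched to labels, no 2 libraries were identical, and CPM were computed on raw totals (47520759 to 73063697).

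Only genes reaching 5 counts in 5 or more libraries (20407) were fitted in 1 model of 4 groups in R 4.3.3 with edgeR 4.0.16 (TMM, glmQLFit, glmQLFTest), with Benjamini-Hochberg adjustment over all of them at a threshold of 0.05. Standard errors are the fold change divided by the square root of F. Beside it stand exact two-sided permutation tests of mean CPM over all arrangements of 5 against 5 libraries (smallest P 0.00794), unadjusted, for 10 markers in 4 comparisons. Correlations use log2(CPM + 0.5). DESeq2 1.42.0 (Wald test), size factors, other filters, group pairs alone, a replicate block, Xist as a covariate, a threshold of 0.01 and each library left out were alternatives, and the sum of the markers was also taken without Eng and on TMM-scaled totals. Leaving out the 2 libraries low in Acta2 or the 5 with Xist and Y-linked transcripts, and Cdh5 as a covariate, were added after seeing the data. The fit was also run on simulated counts of independent libraries. These held no shared cultures, cell mixtures or sex-linked classes, so that run cannot tell how such features act on the calls.

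The members and lists were chosen with earlier results of these data known. Named genes are the 10 markers, Wwp2, list genes called in a comparison and the 3 nearest genes of each marker. Other names were chosen after their values were seen. A count of 0 allows 3 counts, which covers counting error only.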

Additional observations from a re-analysis of the deposited data

Results flagged for a closer look

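In 15 of the 40 combinations of marker and group, 1 library stood apart from the other 4 by the 95% limit of Dixon's test on CPM. Chance passes that limit in about 1 group in 20 only where values are normal. The CPM of these markers are skewed, so the 15 cannot be set against that rate. WT TGFβ1 replicate 3 did so for Pecam1 (31.2 CPM, next 8.8), Cdh5 (61.3, next 16.9), Vwf (6.46, next 1.31), Emcn (68.3, next 20.3) and Plvap (4.23, next 0.787). WWP2-/- replicate 2 did so for Pecam1 (29.1 CPM, next 6.99), Cdh5 (51.8, next 14.5), Tie1 (13.7, next 3.96), Vwf (17, next 4.06) and Emcn (65.6, next 18.3). WT replicate 4 did so for Cdh5 (20.9 CPM, next 5.6), Tie1 (6.41, next 1.73) and Plvap (2.68, next 0.837). All 13 were the highest of their group, in 3 libraries with Y-linked transcripts only. Eng was high in WWP2-/- replicate 3 (47.7 CPM, next 27.2) and in WWP2-/- TGFβ1 replicate 1 (47.5 CPM, next 26), the libraries with Acta2 at 39.7 and 49.0 CPM and with Xist only. Since markers of 1 group of genes move together, these values are not independent of each other.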

How the results depend on the processing

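Leaving out 1 library moved the markers called between genotypes to 1 to 4 with TGFβ1 and 0 to 3 untreated. The 52 listed genes called moved to 4 to 14 and 0 to 4, while all counts for TGFβ1 and the interaction stayed at 0. The share of all genes called was not computed for these fits, so whether these counts moved with it is not known. With TGFβ1, 1 marker was called with the groups compared alone (2.88% of all genes) and with the replicate block (3.28%). None was called with Xist as a covariate (2.87%), at a threshold of 0.01 (0.495%) and without the 5 libraries holding Xist and Y-linked transcripts (0.0101%). Without the 2 libraries low in Acta2, 4 were called (17.2%). Untreated, 2 were called by DESeq2, against 3.89% of all genes. With the groups alone, the replicate block, Xist, the threshold of 0.01 and without those 5 libraries 0 were called, against at most 0.387% of all genes. Of the 52 genes with TGFβ1, 13 were called by DESeq2 and without the libraries low in Acta2, 2 at 0.01 and 0 without the 5 libraries. Untreated, 1 was called without a filter and 0 with the groups alone, the replicate block, Xist, 0.01 and without the 5 libraries. Fewer libraries enter the fits of single groups and of left-out libraries, and for the rest the cause was not tested. The WT sum of the markers was 87.1 CPM without Eng.

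Same-numbered libraries had r from -0.535 to 0.475 in their deviations from group means, and not every library was most like its own number. Some untreated libraries were close to a TGFβ1 library of another number. These were WWP2-/- replicate 3 and WWP2-/- TGFβ1 replicate 1 (r = 0.942), WWP2-/- replicate 2 and WWP2-/- TGFβ1 replicate 5 (0.863), and WT replicate 4 and WT TGFβ1 replicate 3 (0.758). No label says whether such libraries share a culture, and the tests treat all libraries as independent. With the replicate block Kdr with TGFβ1 (edgeR adjusted P = 0.0696) and Tek untreated (edgeR adjusted P = 0.108) were no longer called, and Tek with TGFβ1 in WT turned to 0.02.

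Fold changes of genes that were not called turned sign as follows. With Xist as a covariate, genotype with TGFβ1 gave Pecam1 -1.23, Cdh5 -0.68, Tie1 -1.17 and Emcn -1.27, and untreated Pecam1 -0.66, Cdh5 -0.13, Tie1 -0.33, Emcn -1.12 and Plvap -0.46. TGFβ1 gave Plvap -0.07 in WT and Pecam1 -0.20 and Tie1 -0.34 in WWP2-/-, and the interaction Kdr 0.08. Without the 5 libraries, Plvap was -0.15 untreated, Tek 0.07 and Plvap -0.16 for TGFβ1 in WT, Eng -0.01 in WWP2-/-, and Pecam1 0.21, Cdh5 0.20 and Tie1 0.49 in the interaction. With Cdh5 as a covariate, Emcn was -1.02 with TGFβ1 and -0.64 untreated and Pecam1 -0.18 untreated, TGFβ1 gave Pecam1 -0.81, Tie1 -0.64 and Plvap -0.05 in WT and Pecam1 -0.36 and Tie1 -0.68 in WWP2-/-, and the interaction Pecam1 0.45 and Eng 0.04. The last 2 settings and that on Acta2 were chosen after seeing the data.

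With 1 library left out, the genotype contrast untreated ranged from -0.19 to 1.81 for Cdh5, -0.21 to 1.78 for Pecam1, -0.56 to 0.75 for Emcn and -0.01 to 0.85 for Plvap, and with TGFβ1 from -0.09 to 1.21 for Emcn. TGFβ1 in WT ranged from -0.41 to 1.98 for Cdh5, -0.65 to 1.80 for Pecam1, -0.72 to 1.89 for Tie1, -0.13 to 0.95 for Emcn, -0.87 to 0.81 for Plvap, -0.16 to 0.30 for Eng and -0.40 to 0.20 for Tek, and in WWP2-/- from -0.27 to 0.32 for Eng. The interaction ranged from -1.16 to 1.23 for Cdh5, -1.05 to 1.40 for Pecam1, -1.22 to 1.39 for Tie1, -0.52 to 0.94 for Emcn, -0.36 to 0.23 for Eng and -0.36 to 0.12 for Kdr. Kdr, Tek, Eng and Flt1 stayed negative between genotypes in all alternatives run. DESeq2 size factors and a filter of 10 counts in every library left each of these counts within 1.5 times its value. The mean summed marker level per group ranged over 138 to 144 CPM in WT, 140 to 181 in WT TGFβ1, 87.1 to 130 in WWP2-/- and 129 to 171 in WWP2-/- TGFβ1.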
